A study of Mus musculus with 4 samples.

Results

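The receptors of the common gamma chain cytokines and of interleukin-6 and interleukin-10 were examined in regulatory T cells (Tregs), the Foxp3-expressing T cells that restrain immune responses. The 10 genes were taken by name, as a list of interleukin receptor symbols, from the 24421 genes in the deposited count files: Il2rg, Il2ra, Il2rb, Il15ra, Il4ra, Il7r, Il21r, Il6ra, Il6st and Il10ra. The cells came from tumor-free CD45.1- mice of the strain B6 Foxp3-DTR/GFP, in which Foxp3-expressing cells carry a diphtheria toxin receptor and green fluorescent protein; the labels name no toxin treatment. Each such mouse had been joined surgically for 14 days to a CD45.1+ partner that had received EG7.1.15 tumor cells into the peritoneal cavity. Omental tumor and spleen of the tumor-bearing partner gave 1 library each for mouse 2 and mouse 3, all at day 14 after tumor injection, so that there were 4 libraries, 2 for each tissue. Tregs were sorted as live CD45.1-, CD45.2+, B220-, CD4+, CD25+ and GFP+ cells. Neither the age of the mice nor the number of cells sorted is stated in the labels. CD25 is the product of Il2ra, so cells low in this receptor were gated out of both tissues, and the presence of Il2ra in every library is no finding.

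The common gamma chain, encoded by Il2rg, pairs with a private chain for each of its cytokines: with Il2ra and Il2rb for interleukin-2, Il15ra and Il2rb for interleukin-15, Il4ra for interleukin-4, Il7r for interleukin-7 and Il21r for interleukin-21. These receptors have no enzyme of their own and signal through the kinases Jak1 and Jak3, chiefly to the STAT5 factors, and to STAT6 or STAT3 for interleukin-4 and interleukin-21. Tregs depend on interleukin-2 from other cells, and a high CD25 with a low interleukin-7 receptor is a commonly used surface mark of the lineage. Interleukin-6 binds Il6ra and then gp130, the product of Il6st, and works against Treg differentiation through STAT3. Interleukin-10 binds Il10ra together with Il10rb.

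The gene counts summed to 6660230 (mouse 2) and 3764508 (mouse 3) for omental tumor, and for spleen to 9989005 and 13598631. In edgeR's quasi-likelihood test 215 of the 16322 genes tested (1.32%) were called at an adjusted p of 0.05, 178 higher (1.09%) and 37 lower (0.227%) in omental tumor. Other cells' transcripts were uneven between the omental libraries. The summed level of 6 neutrophil markers was 104 CPM (read counts scaled to library size with TMM factors) in mouse 2 and 1377 CPM in mouse 3, against 88.1 and 43.9 in spleen. S100a9 and S100a8 led this sum in omental mouse 3, at 475 and 412 CPM, while in omental mouse 2 they stood at 1.58 and 0.131 CPM, below spleen (9.10 and 6.26 in mouse 2), and Cxcr2 led. The sum of 7 macrophage and monocyte markers was 410 and 791 CPM against 134 and 259. Within it Lyz2 and Cd14 were higher in both omental libraries, and Csf1r was lower in both, at 38.7 and 14.4 CPM against 69.9 and 109.7. Fibroblast markers, 6 in number, summed to 170 and 13.9 CPM against 12.8 and 6.50. Col3a1 and Dcn led in omental mouse 2, at 91.2 and 37.3 CPM, and stood at 2.03 and 1.01 CPM in omental mouse 3, near spleen mouse 3 (1.83 and 1.19). All 7 macrophage markers were above 0 in every library, while 1 neutrophil marker was at 0 in omental mouse 3 and 1 fibroblast marker in omental mouse 3 and spleen mouse 3. B cell markers summed to between 23.8 and 78.6 CPM over the 4 libraries, dendritic cell markers to between 14.5 and 62.5, NK cell markers to between 8.71 and 18.8 and endothelial markers to between 45.8 and 256, while 4 of 5 erythroid markers were at 0 throughout. The dendritic and NK cell sums were higher in omental tumor in both mice, though not each NK marker was. The endothelial sum was lower in both. It was led by Pecam1, at 80.1 and 31.1 CPM against 208 and 255, while Cdh5 and Kdr were higher in both mice. CD8 T cell markers summed to between 20.001 and 40.4 CPM, mast cell and basophil markers to between 10.4 and 42.01, adipocyte markers to between 2.65 and 45.3, mesothelial markers to between 0.458 and 8.27 and platelet markers to between 1.19 and 6.43. The 6 T lineage genes found in the files, of 8 listed, summed to 2448 and 3000 CPM for omental tumor against 4051 and 6762 for spleen. The sort markers were present in all 4 libraries. Foxp3 stood at 81.4 and 84.3 CPM for omental tumor against 113 and 144, Cd4 at 376 and 114 against 568 and 1008, and Ptprc, which encodes CD45, at 2077 and 925 against 2596 and 4034, and edgeR called none of the 3 (adjusted p of 0.840, 0.571 and 0.779). Treg genes, led by Ctla4 and Tnfrsf18, summed to 2396 and 3045 CPM against 1310 and 2239. Of these 4 genes, Ctla4 and Tnfrsf18 were higher in omental tumor in both mice and Foxp3 was lower in both. Ikzf2 overlapped between the tissues, at 380 and 313 CPM against 322 and 481. In bulk libraries, fewer cells of a type and less RNA per cell cannot be told apart.

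With TMM factors most receptors had lower values in omental tumor, and none passed the threshold in edgeR's test without the mouse as a block (DESeq2 called 1, Il6ra). For 9 of the 10 the log2 fold change (omental tumor over spleen) was below 0, and the median was -0.82 where that of all genes tested was 0.11. Scaled to T lineage counts, whose sum was itself lower in both omental libraries, 6 of these 9 were above 0 in the fit. Of those 6 only Il7r was above spleen in both mice on that scale. At an unadjusted p under 0.05, edgeR's test held 1 of the 10, Il6ra, which was lower; 4.85% of all genes were at that p and lower, and 4.15% higher. Both omental libraries lay below both spleen libraries for 6 receptors (Il2rg, Il2ra, Il2rb, Il6ra, Il6st and Il10ra), a pattern seen in 25.4% of all genes tested. None had the opposite pattern, which 16.4% of genes had. The other 4 overlapped between the tissues. The size of the difference was not the same in the mice: the median log2 ratio of omental tumor to spleen over the receptors was -0.17 in mouse 2 and -1.96 in mouse 3, where the median of all genes was 0.07 in each. The median of all genes includes genes of low level. Among genes with a mean of at least 10 CPM in the length classes of the receptors, medians ran from -0.27 to -0.19 in mouse 2. In mouse 3 they ran from -1.04 to -0.54.

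**Figure D1:**
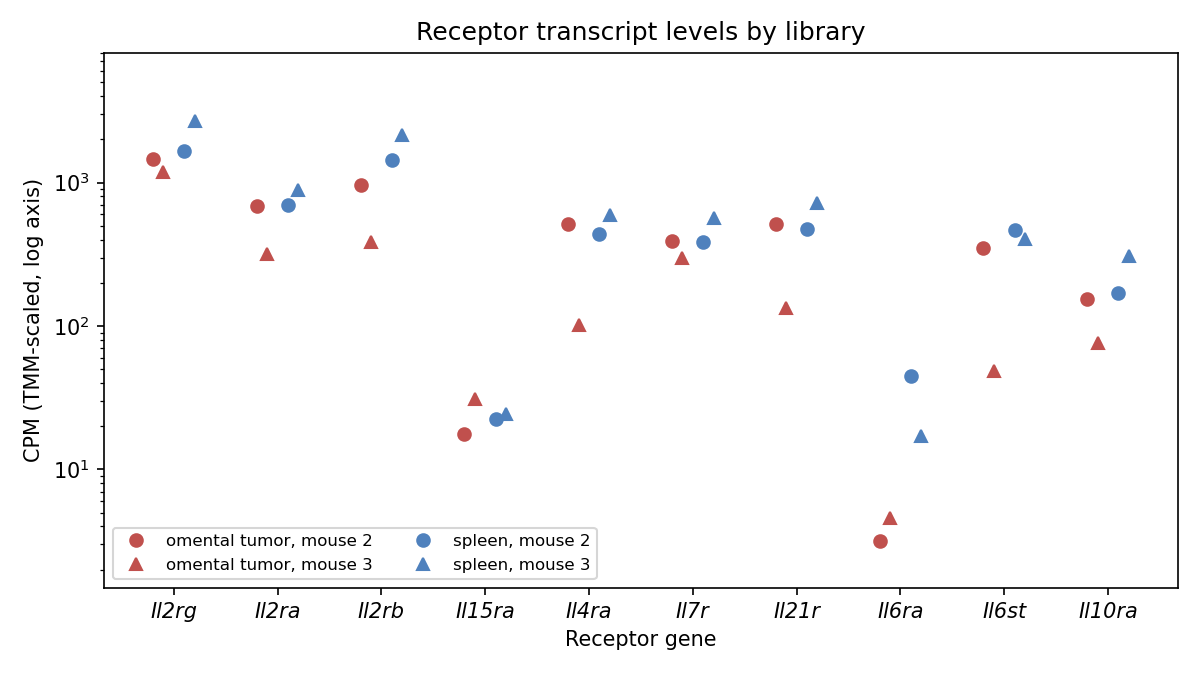
Level of each receptor gene in each library, in TMM-scaled CPM on a log axis. Red is omental tumor, blue is spleen, circles are mouse 2 and triangles mouse 3; Il6ra lies below its spleen levels in both omental libraries, while Il4ra, Il21r and Il6st are low chiefly in the omental library of mouse 3.

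Per kilobase of exon, which allows levels of different genes to be compared, the receptors had the same order in both tissues. Il2rg was the highest, at 552 ± 79.6 CPM per kilobase in omental tumor and 912 ± 306 in spleen (SD, n = 2). Il2rb came next with 156 ± 93.5 and 418 ± 116, followed by Il21r, Il2ra, Il7r and Il4ra. Il10ra and Il6st were lower, at 32.8 ± 15.7 and 17.9 ± 19.1 in omental tumor, with spleen at 68.4 ± 27.8 and 39.2 ± 3.66. The lowest were Il15ra, at 5.47 ± 2.09 in omental tumor and 5.29 ± 0.290 in spleen, and Il6ra, at 0.446 ± 0.115 and 3.57 ± 2.26 CPM per kilobase. In omental tumor the ranges of all neighbours in this order overlapped except Il2rg with Il2rb and Il15ra with Il6ra. In spleen the neighbours that overlapped were Il21r with Il2ra, Il7r with Il4ra, Il4ra with Il10ra, and Il15ra with Il6ra.

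The shared chain was the most abundant receptor gene and stood lower in omental tumor, mainly in mouse 3. Il2rg lies on chromosome X (101264378 to 101268255, minus strand, mm10). It stood at 1451 (mouse 2) and 1183 CPM (mouse 3) in omental tumor, with spleens at 1661 and 2693 CPM. Both omental values were below both spleen values, and the log2 fold change was -0.73 (SE 0.93, edgeR adjusted p = 0.847). Its 2 omental libraries differed 1.23-fold, which was less than the 1.62-fold gap between the 2 spleen libraries.

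Both other chains of the interleukin-2 receptor stood lower in omental tumor, Il2rb further than Il2ra. Il2ra, the high-affinity alpha chain (chromosome 2, 11642807 to 11693193, plus strand), stood at 690 and 320 CPM in omental tumor of mouse 2 and mouse 3 and at 700 and 886 CPM in spleen. In mouse 2 the tissues were almost level, with a log2 ratio of -0.02, and in mouse 3 the ratio was -1.47. The fit gave -0.65 (SE 0.87, edgeR adjusted p = 0.852). Il2rb, the beta chain shared by interleukin-2 and interleukin-15 (chromosome 15, 78479256 to 78495271, minus strand), stood at 954 and 387 CPM in omental tumor and at 1440 and 2141 CPM in spleen. It was lower in both mice, by log2 ratios of -0.59 and -2.47, with a fitted change of -1.42 (SE 0.92, edgeR adjusted p = 0.693). Il2rb was one of 3 receptors, with Il6ra and Il6st, whose sign was negative under all 14 alternative settings.

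Il15ra was the single receptor with a positive fold change, and the sign was not stable. It presents interleukin-15 to neighbouring cells and lies 12.1 kb downstream of Il2ra on the same strand (chromosome 2, 11705290 to 11734317). Its counts were 135 and 122 for omental tumor, with spleens at 231 and 267, which gave 17.7 and 30.9 CPM against 22.6 and 24.4 CPM. The 2 spleen values lay between the 2 omental ones. The log2 fold change was 0.04 (SE 0.78, edgeR adjusted p = 0.987), and 5 of 14 alternative settings gave a negative value.

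The private chains of interleukin-4 and interleukin-21 split the 2 mice. Il4ra and Il21r are neighbours on chromosome 7 (125552120 to 125579474 and 125603429 to 125633570, both on the plus strand), 24.0 kb apart. Il4ra, which also serves interleukin-13, stood at 511 (mouse 2) and 101 CPM (mouse 3) in omental tumor, with spleens at 439 and 597 CPM. Il21r stood at 514 and 132 CPM against 474 and 719 CPM. Both were slightly higher in omental tumor than in spleen in mouse 2, by log2 ratios of 0.22 and 0.12. In mouse 3 both were lower, by -2.56 and -2.44. Their fitted changes were -0.76 (SE 0.85, edgeR adjusted p = 0.827) for Il4ra and -0.88 (SE 0.86, edgeR adjusted p = 0.804) for Il21r. Leaving out omental mouse 3, these became -0.11 and -0.30, and without that of mouse 2 they became -2.37 and -2.19. The annotation places an antisense gene across exons of Il4ra, and since the library kits do not mark strand, reads of the pair cannot be told apart.

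Il7r had the smallest difference among the receptors with a negative fold change. The gene for the interleukin-7 receptor alpha chain (chromosome 15, 9505788 to 9530176, minus strand) stood at 389 and 300 CPM in omental tumor of mouse 2 and mouse 3, against 387 and 569 CPM in spleen. The mouse 2 values were the same within 0.01 on the log2 scale, and the mouse 3 ratio was -0.93. The fitted change was -0.47 (SE 0.85, edgeR adjusted p = 0.891), and it was 0.051 without the spleen library of mouse 3 and 0.036 with upper-quartile factors.

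Il6ra, the chain that binds interleukin-6, was the receptor with the largest difference and stood lower in omental tumor in both mice. The gene lies on chromosome 3 (89864059 to 89913196, minus strand). It had 24 and 18 counts in omental tumor of mouse 2 and mouse 3 and 456 and 186 in spleen. These counts gave 3.15 CPM (exact Poisson 95% interval 2.02 to 4.69) and 4.56 CPM (2.70 to 7.20) in omental tumor, against 44.6 (40.6 to 48.9) and 17.0 (14.7 to 19.6) in spleen. The intervals cover counting error only, and reads copied in amplification are not independent molecules. All 4 intervals kept the tissues apart, while the spleens themselves differed 2.62-fold. The log2 ratios were -3.82 in mouse 2 and -1.90 in mouse 3. The fitted log2 fold change was -3.01 (SE 0.89), which is 8.04-fold higher in spleen, with an edgeR adjusted p of 0.0547. With the mouse as a replicate block Il6ra fell by 2.87 on the log2 scale and was called (edgeR adjusted p = 0.0456), where 0.41% of all genes tested were called lower. DESeq2 also called it (-2.79, adjusted p = 0.0244, with 0.76% of all genes called lower), and over all 14 alternatives the adjusted p ran from 0.0244 to 0.617. An antisense gene overlaps exons of Il6ra in the annotation, and reads of the pair cannot be told apart.

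Il6st, the gp130 chain that carries the signal of interleukin-6 and its relatives (chromosome 13, 112464070 to 112510086, plus strand), followed a different course. It stood at 349 (mouse 2) and 48.9 CPM (mouse 3) in omental tumor, with spleens at 464 and 406 CPM. The gap between the omental libraries was 7.13-fold, and 4.72% of all genes tested with counts in both had a wider one. The log2 ratio was -0.41 in mouse 2 and -3.06 in mouse 3, with a fitted change of -1.13 (SE 0.84, edgeR adjusted p = 0.748). Leaving out omental mouse 2, edgeR gave -3.17 (adjusted p = 0.0917), and -0.41 when that of mouse 3 was left out instead (adjusted p = 0.938).

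Il10ra, the binding chain of the interleukin-10 receptor (chromosome 9, 45253837 to 45269149, minus strand), stood at 153 and 76.0 CPM in omental tumor against 171 and 308 CPM in spleen. Both omental values were below both spleen values, by little in mouse 2 (log2 ratio -0.15) and more in mouse 3 (-2.02). The fitted change was -1.06 (SE 0.81, edgeR adjusted p = 0.756). Its partner Il10rb stood at 88.2 and 122 CPM against 149 and 160 CPM (log2 fold change -0.55, edgeR adjusted p = 0.858).

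**Figure D2:**
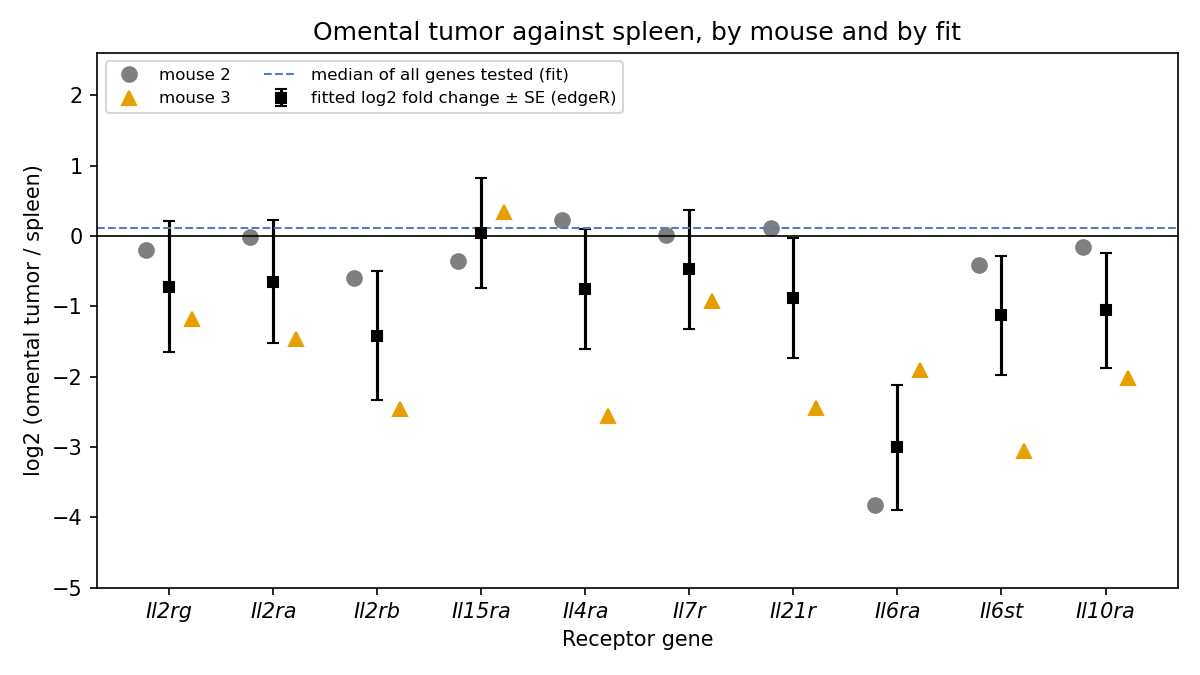
Log2 ratio of omental tumor to spleen for each receptor in mouse 2 (grey circles) and mouse 3 (orange triangles), with edgeR's fitted log2 fold change and its SE (black squares); the dashed line is the median of all genes in the fit. The mouse 3 ratio is between -3.06 and -1.90 for 6 receptors, while in mouse 2 only Il6ra is below -1.

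Ratios between 2 chains within a library do not depend on how libraries are scaled. For 11 pairs the means of the log2 ratios were compared between tissues by a two-sided exact permutation test over the 4 libraries, whose smallest possible p is 0.333 (0.917 after Benjamini-Hochberg adjustment over the 11), so no pair could pass. Il2ra reads per Il2rb read were 0.723 and 0.825 for omental tumor, with spleens at 0.486 and 0.414. The ratio of alpha to beta chain reads was thus higher in both omental libraries than in both spleens, by log2 differences of 0.57 in mouse 2 and 0.995 in mouse 3. Of all genes tested, 67.9% were higher relative to Il2rb in both omental libraries and 3.24% lower, so this order was the common one. Il2rb per Il2rg was 0.657 and 0.328 for omental tumor against 0.867 and 0.795, a lower ratio that 11.4% of all genes shared. Il7r per Il2rg, which varied least of the 11 ratios over the 4 libraries, was 0.268 and 0.253 against 0.233 and 0.211, and 34.5% of genes were higher in both omental libraries on this measure. Il15ra per Il2rb was 0.0186 and 0.0797 against 0.0157 and 0.0114.

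The remaining ratios overlapped between tissues. Il2ra reads per Il7r read, the pair that marks Tregs at the cell surface, were 1.77 and 1.07 for omental tumor, with spleens at 1.81 and 1.56. Il4ra per Il2rg was 0.352 and 0.0856 against 0.264 and 0.222, and Il21r per Il2rg 0.354 and 0.112 against 0.286 and 0.267. Il6ra per Il6st was 0.00904 in the omental library of mouse 2 and 0.0933 in that of mouse 3, against 0.0963 and 0.0419 in spleen. In mouse 2 the interleukin-6 binding chain was therefore low relative to gp130, and in mouse 3 it was not.

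**Figure D3:**
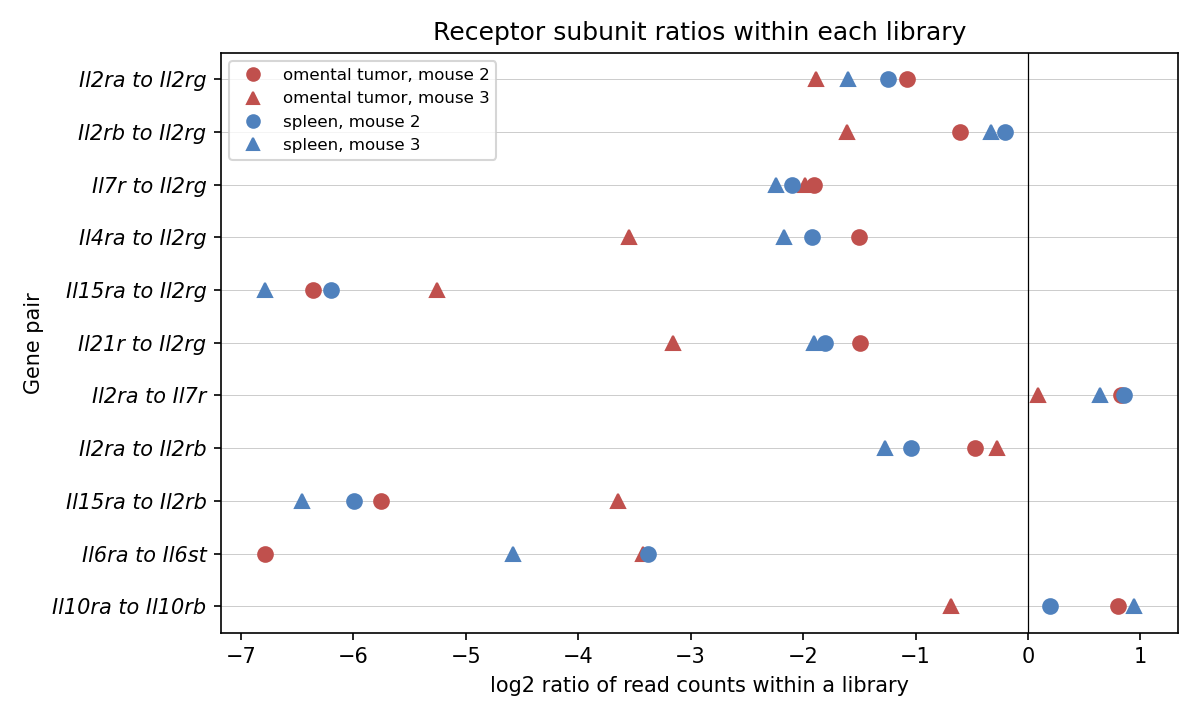
Log2 ratio of the read counts of 2 receptor genes within each library, 1 row per pair. Red is omental tumor, blue is spleen, circles are mouse 2 and triangles mouse 3; the tissues do not overlap for Il2rb to Il2rg, Il7r to Il2rg, Il2ra to Il2rb and Il15ra to Il2rb.

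Omental tumor had the lower summed level of the 6 T lineage genes in each mouse (mouse 2: log2 ratio -0.73, mouse 3: -1.17). Cd3e, Cd247, Cd4 and Lck were lower in both mice, but not each gene followed the sum in mouse 3. There Cd3d was higher in omental tumor, at 913 CPM against 803 in spleen, and Cd3g was almost level, at 1100 against 1123. Relative to the summed counts of these 6 genes, a scale chosen after the data were seen, 6 of the 9 negative fold changes turned positive (Il2rg, Il2ra, Il4ra, Il7r, Il21r and Il10ra). Of these only Il7r was above spleen in both mice. In mouse 3 the other ratios stayed below 0 on the log2 scale: Il4ra -1.39, Il21r -1.27, Il10ra -0.85, Il2ra -0.30 and Il2rg -0.015. On this scale the median of all genes was 0.99, so values near 0 lay below the median gene. Il6ra was 0.129% and 0.152% of the T lineage counts in omental tumor and 1.10% and 0.252% in spleen, and its fitted change was -2.27 (edgeR adjusted p = 0.617). Il7r was 15.9% and 9.98% against 9.56% and 8.42%, and Il15ra 0.724% and 1.03% against 0.558% and 0.361%. For these 2 receptors both omental values were above both spleen values, as for 41.5% of all genes tested on this scale. Il6ra was the 1 receptor with both below, as for 4.09%. The part of other cells' RNA in the receptor values was not tested.

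Transcript length moved with the mouse 3 values. Among genes with a mean of at least 10 CPM, the median log2 ratio of omental tumor to spleen in mouse 3 was 0.38 for exon lengths under 2 kb, -0.54 from 2 to 4 kb, -1.04 from 4 to 6 kb, -0.99 from 6 to 8 kb and -0.81 above 8 kb. In mouse 2 the medians ran only from -0.27 to -0.16. Against the lower quartile of its own length class in mouse 3, Il6st (-3.06 against -1.84), Il4ra (-2.56 against -2.005), Il21r (-2.44 against -1.61), Il2rb (-2.47 against -2.05) and Il10ra (-2.02 against -1.61) lay below. Il6ra (-1.90 against -1.84) was at the edge. Il2ra, Il2rg and Il7r lay between the quartiles, and Il15ra (0.34) above the upper quartile of 0.17. The part of RNA quality in these values was not tested.

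**Figure D4:**
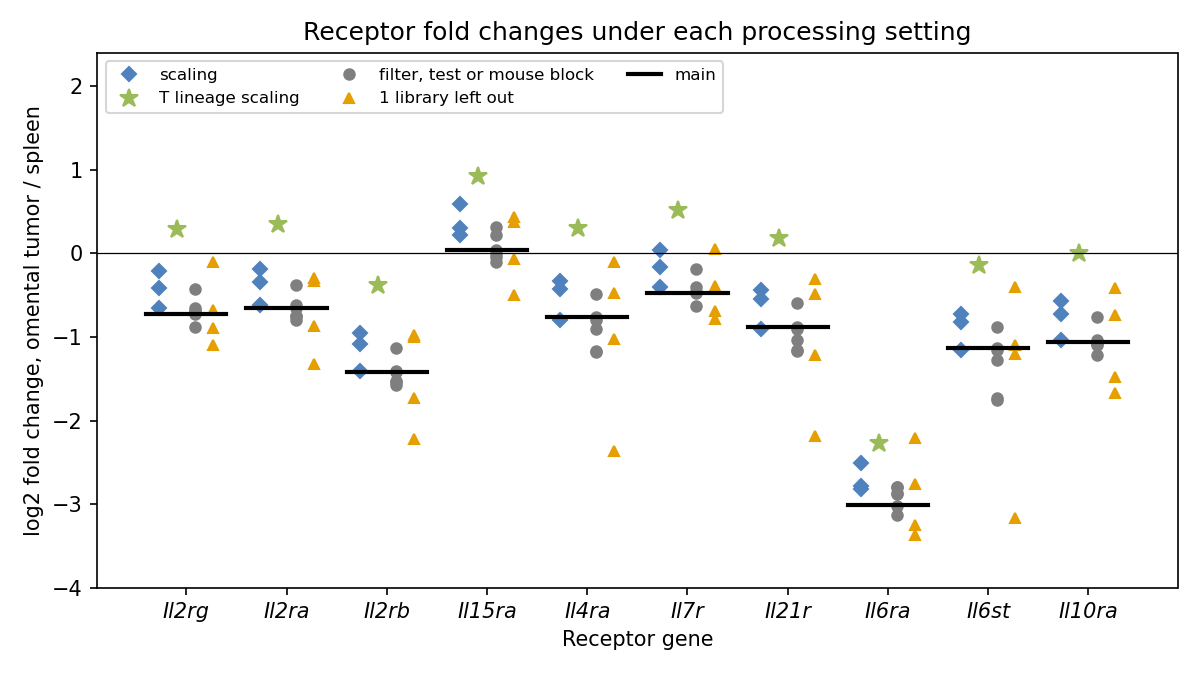
Log2 fold change of each receptor under the reported setting (black bar) and the 14 alternatives: other scaling factors (blue), scaling to T lineage counts (green star), other filters, tests or the mouse block (grey) and 1 library left out (orange). Il6ra stays between -3.37 and -2.21. Il2ra, Il2rb, Il4ra, Il21r, Il6st and Il10ra each have their own lowest value without the omental library of mouse 2.

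The other genes of these pathways numbered 94, of which 86 passed the filter on low counts. Of these 1 was called, Bcl2, which was lower, where 1.32% of all genes were called in either direction and 0.227% lower. The lists were drawn from general knowledge of the pathways with earlier results known. Among the ligands, 10 of 12 tested had positive log2 fold changes, as had 8747 of the 16322 genes tested. The ligand median was 0.98 against 0.11 over all genes. Several ligands had low counts, such as Il4 (19 and 7 in omental tumor, 3 and 0 in spleen) and Tslp (22 and 8 against 15 and 4). The ligands were not set against genes of like level. None was called in edgeR's test with all libraries and without the mouse block. Il6 itself had 69 and 63 counts in omental tumor of mouse 2 and mouse 3 and 27 and 6 in spleen, or 9.06 and 15.9 CPM against 2.64 and 0.549 CPM. Both omental values were higher, with a fitted change of 2.96 (SE 1.08, edgeR adjusted p = 0.218). Il6 was called with the mouse block, where it rose by 3.17 (edgeR adjusted p = 0.0133), with 1.48% of all genes called higher. DESeq2, without the block, also called Il6 (3.24, adjusted p = 0.0275), where 246 of 16322 genes were called higher. Il6 is made by many cell types, macrophages and fibroblasts among them, and the summed markers of both were higher in the same omental libraries. Not each marker was higher: Csf1r was lower in both mice, and Adgre1 and Dcn were lower in mouse 3. The part of these cells in the Il6 values was not tested. Il10, a suppressive product of Tregs and of macrophages, stood at 25.5 and 85.1 CPM against 7.14 and 20.9 (log2 fold change 1.98, edgeR adjusted p = 0.327). Its log2 ratio was 1.83 in mouse 2 and 2.03 in mouse 3. The size of the fitted change depended on which library was left out. It was 2.58 when omental mouse 2 was left out, 0.77 without omental mouse 3, 1.35 without spleen mouse 2 and 3.36 without spleen mouse 3. With 1 omental library left, that library is assumed to vary like the spleen pair, so only sizes are given here.

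Of 20 other receptor chains tested, none was called, with 11 positive and a median of 0.18. Il27ra, which pairs with gp130 for interleukin-27, stood at 206 and 72.2 CPM in omental tumor and 467 and 718 CPM in spleen (log2 fold change -2.09, edgeR adjusted p = 0.371). Other partners of gp130 differed in direction: Lifr stood at 19.3 and 6.84 CPM against 6.65 and 1.83, and Osmr at 13.5 and 8.35 against 6.46 and 2.29, both above spleen in each mouse and neither called (edgeR adjusted p of 0.639 and 0.746). Lifr and Osmr were chosen after their values were seen. Il13ra1, which joins Il4ra to bind interleukin-13, stood at 21.3 and 37.5 CPM against 11.4 and 7.05 (1.67, edgeR adjusted p = 0.525). Il9r, named outside the rule as the remaining private chain of the family, stood at 47.1 and 17.2 CPM against 40.4 and 83.3 (-0.94, edgeR adjusted p = 0.773).

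Of 17 kinases, STAT factors and adaptors tested, 11 were negative and none was called. Jak1 stood at 425 and 279 CPM in omental tumor and at 1331 and 330 CPM in spleen, and Jak3, the kinase bound to the common gamma chain, at 266 and 56.2 against 363 and 127 CPM. Neither was called, with edgeR adjusted p of 0.726 and 0.852, and without the spleen library of mouse 2 both fold changes were positive. The adaptors with the smallest p pointed in opposite directions: Grb2 had a log2 fold change of 1.88 (edgeR adjusted p = 0.384) and Shc1 of -1.83 (adjusted p = 0.437). The size of both changes depended on omental mouse 3. With omental mouse 2 left out they were 2.63 and -3.30, and with omental mouse 3 left out 0.092 and -1.22. In mouse 2 the log2 ratio was 0.33 for Grb2 and -0.78 for Shc1. Of 12 feedback inhibitors, 9 were negative and none called. Pias3 stood at 13.7 and 3.29 CPM against 23.4 and 25.8, and Socs3, an inhibitor that binds gp130, at 53.4 and 20.3 against 173 and 21.4 CPM. Adam10 and Adam17, proteases that shed cytokine receptors such as Il6ra, had changes of -1.27 (edgeR adjusted p = 0.696) and -0.74 (adjusted p = 0.825).

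Downstream of interleukin-2 and STAT5, 1 of 14 genes was called, where 1.32% of all genes were. The list did not move as one: 6 of its genes were positive and 8 negative, with a median of -0.29. Bcl2, the survival factor sustained by common gamma chain cytokines, fell from 306 and 228 CPM in spleen to 30.5 and 18.5 CPM in omental tumor (log2 fold change -3.44, SE 0.88, edgeR adjusted p = 0.00981). It was as low in mouse 2 (log2 ratio -3.33) as in mouse 3 (-3.62). It was not called when omental mouse 3 was left out (-3.22, edgeR adjusted p = 0.273), nor without spleen mouse 2 (-3.28, 0.372) or spleen mouse 3 (-3.46, 0.198), while the fold stayed about as large. It was called when omental mouse 2 was left out (-3.86), the setting that called the most genes. It also missed the threshold with library totals alone, at a minimum count of 50 and with T lineage scaling, where the value stayed between -3.20 and -2.55. Gzmb, a cytolytic enzyme, stood at 533 and 705 CPM against 81.1 and 193 (2.17, edgeR adjusted p = 0.335). Of 8 tested regulators of the receptor genes none was called: Ets1 stood at 400 and 265 CPM against 1495 and 651 (-1.69, edgeR adjusted p = 0.582), and Foxo1, an activator of Il7r, at 35.8 and 34.9 against 65.6 and 88.9 (-1.13, edgeR adjusted p = 0.710).

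**Figure D5:**
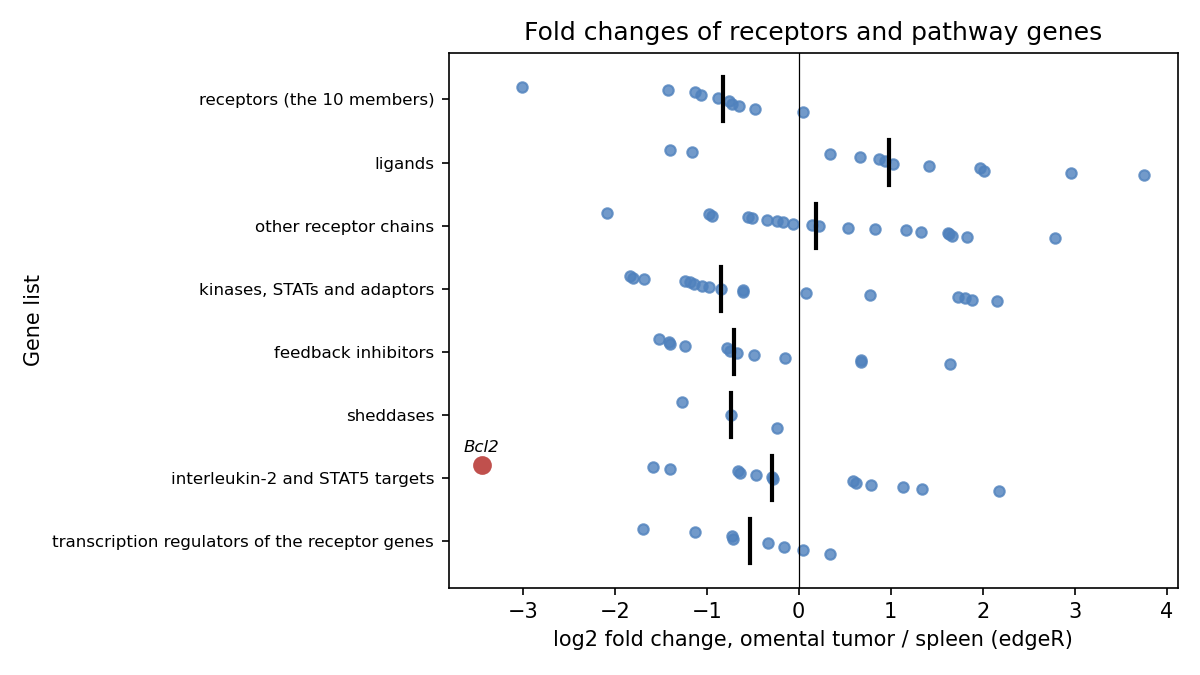
Log2 fold change of omental tumor against spleen for the 10 receptors and for each list of pathway genes that passed the filter, 1 point per gene, with the list median as a black bar. Bcl2 (red) is the single called gene. Ligands, several of them at low counts, have a median of 0.98 and the receptors of -0.82.

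The sequence before the gene start was looked at for the receptors on which these results turn: Il6ra and Il6st as the 2 chains of one receptor that parted in mouse 2, Il2ra as the gated chain and Il21r as a chain that split the mice. RefSeq promoter windows of build GRCm38.p6 were matched for 8 of the 10 receptors by symbol, with 2 windows for Il15ra, and the 250 bases before each start are considered. Capitals mark matches, on either strand, to any of 8 short motifs. STAT factors were searched with TTCNNNGAA and with the STAT6 type of that motif, whose spacer is 1 base longer. The forkhead motif was TGTTTAC, the GC box was GGGCGG, and the AP-1 motif was TGANTCA. The core of interferon regulatory factors was AANNGAAA, the TATA motif was TATAAA, and the NFAT core was GGAAAA. Matches of different motifs may overlap. The windows are chr3:89913197-89913446 (minus strand) for Il6ra, chr13:112463820-112464069 (plus) for Il6st, chr2:11642542-11642791 (plus) for Il2ra and chr7:125603179-125603428 (plus) for Il21r.
Il6ra: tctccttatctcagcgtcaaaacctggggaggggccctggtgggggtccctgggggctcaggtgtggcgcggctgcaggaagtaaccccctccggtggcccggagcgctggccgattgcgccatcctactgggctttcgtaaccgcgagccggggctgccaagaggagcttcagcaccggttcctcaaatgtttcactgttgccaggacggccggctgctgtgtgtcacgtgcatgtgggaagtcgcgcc
Il6st: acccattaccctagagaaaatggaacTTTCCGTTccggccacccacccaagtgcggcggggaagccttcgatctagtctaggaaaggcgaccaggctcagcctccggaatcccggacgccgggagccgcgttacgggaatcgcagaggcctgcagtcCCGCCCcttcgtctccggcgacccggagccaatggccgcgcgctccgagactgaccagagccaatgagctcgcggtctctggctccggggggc
Il2ra: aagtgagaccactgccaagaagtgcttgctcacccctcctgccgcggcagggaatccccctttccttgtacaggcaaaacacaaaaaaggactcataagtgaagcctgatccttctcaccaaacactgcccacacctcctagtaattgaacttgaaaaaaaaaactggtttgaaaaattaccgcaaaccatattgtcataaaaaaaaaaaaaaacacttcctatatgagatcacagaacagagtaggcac
Il21r: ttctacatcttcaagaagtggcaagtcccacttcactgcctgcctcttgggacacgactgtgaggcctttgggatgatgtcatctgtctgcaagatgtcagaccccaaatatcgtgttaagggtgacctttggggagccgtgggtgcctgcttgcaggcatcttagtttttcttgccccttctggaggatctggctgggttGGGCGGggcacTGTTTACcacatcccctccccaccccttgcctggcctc

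The Il6ra and Il6st windows were rich in G and C, at 65.2% and 66.0% against a median of 52.4% over 32851 windows, and the Il2ra window was poor in them, at 42.4%. No match to the 8 motifs stood in the windows of Il6ra or Il2ra. Il6st held a GC box and an interferon regulatory factor match, and Il21r a GC box and a forkhead match. Over the 9 receptor windows, GC boxes stood in 3, against 32.7% of all windows, and the first STAT motif in 1, that of Il7r, against 7.02%. The forkhead motif stood in 1 of 9 against 3.17%, AP-1 in 1 against 6.75%, the interferon regulatory factor core in 2 against 21.3% and the NFAT core in 2 against 20.4%. The TATA motif (12.4% of all windows) and the STAT6 type motif (5.85%) stood in none. These matches describe letters in the window and not bound sites.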

How the data were processed

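The authors deposited raw read counts per gene symbol, 1 file for each of 4 libraries. Per the labels' protocols, RNA was converted with SMART-seq v4 and Nextera XT, which do not mark strand. The genome build was mm10 and the tools listed are HTSeq, TopHat2, SAMtools and Trim Galore, per the submitters' processing notes; no version, annotation or strand option is given in the sources used here. The 5 HTSeq summary entries, which name no gene, made up 54.0% to 82.9% of each file's total and were left out.

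The deposited counts entered edgeR 4.0.16 under R 4.3.3: filterByExpr at a minimum count of 10, TMM factors, glmQLFit and glmQLFTest with defaults, tissue alone as the model, Benjamini-Hochberg over 16322 genes. The standard error (SE) is the absolute log2 fold change over the square root of F. The prior degrees of freedom were infinite, so SE and p do not measure a gene's own spread between mice. Positive changes mean higher in omental tumor. The test was also run on simulated data. Their spread was set by hand and not taken from these libraries, so that run does not measure its accuracy here. All 10 receptors passed the filter.

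The labels give the same mouse number to both tissues, and these were taken as the same animal and as pairs; across genes, the deviations of same-mouse libraries from their tissue's mean had a correlation of 0.234. With 2 libraries per tissue, edgeR's p-values rest on the spread between these libraries pooled over genes, and on no further mice. Positions and exon lengths are from GENCODE vM21 (GRCm38). The alternatives were 3 other scalings, 2 filters, DESeq2 1.42.0, limma 3.58.1 voom, the mouse as a block and each library left out. After the data were seen, scaling to T lineage counts and the non-legacy form of glmQLFit were added. Members and gene lists were chosen with earlier results of these data known. Pathway genes named were those called, the 2 with the smallest p in each list, Jak1, Jak3 and Il10rb; the marker lists that were summed cover T lineage, Treg and other cell types.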

Additional observations from a re-analysis of the deposited data

How the results depend on the processing

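Over all genes 215 were called, against 26 with library gene totals alone, 3 at a minimum count of 50, 370 with DESeq2, 1 when scaled to T lineage counts, and 44 to 606 without single libraries (606 without omental mouse 2, 79 without omental mouse 3, 44 without spleen mouse 2, 74 without spleen mouse 3). DESeq2 gave no adjusted p for 3481 genes. The median log2 fold change of all genes was 0.11 with TMM, 0.24 with RLE, 0.60 with upper-quartile factors, 0.37 with totals and 0.99 with T lineage scaling; the cause of the lower counts was not tested. The split was 178 higher and 37 lower with TMM, 188 and 13 with upper-quartile factors and 107 and 56 with limma-voom.

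Receptors called numbered 0, with 1 (Il6ra) in DESeq2 and 1 (Il6ra) with the replicate block, and 0 to 0 without single libraries. With the replicate block, which uses the pairing of tissues by mouse, 308 genes were called in all and 2 pathway genes, Bcl2 and Il6; the block changed no other receptor or pathway call. Pathway genes called were 1, against 2 with DESeq2, 0 with totals, 0 at a minimum count of 50, 0 with T lineage scaling, and 0 to 6 without single libraries.

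T lineage scaling turned the fitted changes of Il2ra (0.35), Il2rg (0.29), Il7r (0.53), Il4ra (0.30), Il21r (0.19) and Il10ra (0.0067) positive. Il7r was also positive with upper-quartile factors (0.036) and without spleen mouse 3 (0.051). Il15ra turned negative with no filter (-0.10), limma-voom (-0.045), the replicate block (-0.0064), without omental mouse 3 (-0.50) and without spleen mouse 2 (-0.07); without single libraries it ran from -0.50 to 0.44, and Il7r from -0.78 to 0.051. Without single libraries the log2 ratio difference ran from -0.46 to 0.35 for Il2ra to Il2rg, -1.50 to 0.54 for Il4ra to Il2rg, -1.30 to 0.36 for Il21r to Il2rg, -0.65 to 0.081 for Il2ra to Il7r, -2.81 to 0.55 for Il6ra to Il6st and -1.26 to 0.23 for Il10ra to Il10rb. The other 173 of 195 receptor and ratio values kept their direction and, for receptors, their side of the threshold. Beside them 2 gained a call, both of Il6ra. The ratio values with the replicate block equal the reported ones by construction, so their place among the 173 was fixed in advance. Of 294 values for the other 21 named genes, 274 kept both, 5 gained a call and 6, all of Bcl2, lost it. T lineage scaling turned Adam17 (0.35), Jak3 (0.23), Il10rb (0.35), Foxp3 (0.32) and Il9r (0.17) positive, as did leaving out spleen mouse 2 for Socs3 (0.73), Jak1 (0.035) and Jak3 (0.28) and omental mouse 3 for Jak3 (0.034); without single libraries Socs3 ran from -2.27 to 0.73, Jak1 from -1.72 to 0.035 and Jak3 from -2.13 to 0.28. The low counts of Il6ra and Il15ra limit their precision.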
